A study of Mus musculus with 9 samples.

Results

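The 9 genes described here encode the cyclins, kinases and activating phosphatase that move a cell through G1 into S phase. They are the D-type cyclins Ccnd1, Ccnd2 and Ccnd3, their kinases Cdk4 and Cdk6, the E-type cyclins Ccne1 and Ccne2, their kinase Cdk2, and Cdc25a. They were chosen by name from a table of 54347 genes, and all 9 passed the filter on low counts that kept 15532 genes for testing. RNA was sequenced from pancreatic neuroendocrine tumors of INS-p25OE mice and from normal islets, 1 library per sample.

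M1, M2 and M3 were functional tumors, M4, M5 and M6 were non-functional tumors, and NI1, NI2 and NI3 were labelled beta islets of strain C57BL/6. INS-p25OE mice carry both Ins2-rtTA and tetOp-p25GFP on a C57BL/6 background, so that doxycycline in the drinking water, given from weaning, induces p25 in cells with an active insulin promoter. p25 is the fragment of p35 that activates Cdk5. By the series description the normal controls were littermates that carried no transgene. M2 came from a female and the other 8 libraries from males. Ages at collection were not given for these libraries. The samples were tumor tissue or islets, each a mix of cells, so fewer cells of a type and less RNA per cell cannot be told apart. Tumor tissue and islets also differ as preparations, and that difference cannot be told apart from the one between tumor and islet.

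D-type cyclins are made in response to growth signals and bind Cdk4 or Cdk6, and these kinases begin to phosphorylate the retinoblastoma protein. E-type cyclins then bind Cdk2, which completes that phosphorylation and releases the E2F factors that turn on the genes of DNA replication. Cdc25a removes inhibitory phosphates from Cdk2. In mouse islets Ccnd2 is known to be the D-type cyclin that beta cells depend on after birth, and Cdk4 is their main D-cyclin kinase.

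The D-type cyclins differ in sequence but begin alike, with a short motif through which they bind the retinoblastoma protein. The first 60 coding bases of each are shown because the comparison of Ccnd2 with Ccnd1 and Ccnd3 depends on reads being told apart between them. They are written 5′ to 3′ from GENCODE transcripts on GRCm38, with the codons of the motif in capitals. They lie in exon 1 of Ccnd1 at chr7:144939634-144939693 on the minus strand, in exon 1 of Ccnd2 at chr6:127150714-127150773 on the minus strand, and in exon 3 of the Ccnd3 transcript at chr17:47593655-47593714 on the plus strand.
Ccnd1: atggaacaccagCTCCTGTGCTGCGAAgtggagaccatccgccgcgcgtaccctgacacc
Ccnd2: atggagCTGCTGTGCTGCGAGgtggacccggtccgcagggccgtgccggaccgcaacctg
Ccnd3: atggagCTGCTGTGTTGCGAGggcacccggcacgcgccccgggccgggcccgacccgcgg
The motif covers codons 5 to 9 of Ccnd1 and codons 3 to 7 of both Ccnd2 and Ccnd3. No stretch of 31 bases of a D-type cyclin transcript was found in the transcripts of another of the 9 genes. Overlap with neighbouring genes was larger. Of the 31-base stretches of Ccnd1, 22.3% were shared with other genes on either strand, chiefly LTO1, against 19.5% for Cdk4 (chiefly Tspan31), 15.6% for Ccne2 (chiefly Ints8), 7.95% for Ccnd3 (chiefly Bysl) and 6.95% for Ccnd2 (chiefly Gm43126). The library kit did not mark strand, so reads from those stretches could be assigned to either gene.

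The islet libraries were not alike. Over the tested genes, log2(CPM + 1) of the library labelled NI1 had r = 0.988 with tumor M6, above its r of 0.932 with NI2 and 0.920 with NI3, and above the r of 0.904 to 0.945 between tumors. Its median absolute log2 difference was 0.105 from M6, 0.341 from NI2 and 0.415 from NI3. CPM here and throughout is the read count scaled to library size after TMM, a scaling that limits the weight of a few dominant genes. For 8 of the 9 genes of this report NI1 was closer to M6 than to the mean of NI2 and NI3. Cdk5r1, the gene of p35 and p25, was at 279 CPM in NI1 against 149 to 400 CPM in the tumors, 18.3 CPM in NI2 and 12.5 CPM in NI3. Whether NI1 is as labelled, or holds tumor RNA, was not tested, so an islet mean that includes it may not be one of normal islets alone. Fold changes against islets are therefore given with and without NI1. NI1 was set apart by expression values that the tests also use. Leaving it out widens the difference for genes in which it resembled the tumors. P-values without NI1 are thus not independent of that choice, and they rest on NI2 and NI3 alone as islets.

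Total counts ran from 36468280 to 63637175 per library, and the share on mitochondrial genes was 32.1% in M4 and 1.76% to 8.41% in the others. Beta-cell markers summed to 18848 to 117011 CPM in the tumors and 122162 to 365052 CPM in the islets. Ins1 and Ins2 were high in all 9 libraries and, with Iapp, made up most of that sum. The log2 fold change of tumors against islets was positive for 3 of the 10 beta-cell markers and negative for the rest. The 3 were Pdx1, Nkx6-1 and Mafa (0.44, 0.14 and 0.06, and 0.44, 0.14 and 0.15 without NI1). Of the marker lists, 9 of 15 genes of the dissociation response and 2 of 8 lymphoid genes were lower in tumors by the quasi-likelihood test in edgeR at the 0.05 threshold on adjusted p, and no gene of the other 8 lists was called. Without NI1 the counts were 12 of 15 and 4 of 8, and further calls were 6 of 8 proliferation and 2 of 6 macrophage markers higher, and 2 of 7 tested alpha, delta and PP markers, 1 of 10 beta-cell and 1 of 7 tested acinar markers lower. Dissociation genes summed to 278 to 472 CPM in tumors and 960 to 3419 CPM in islets, and lymphoid genes to 60.3 to 546 and 268 to 1688 CPM. The range was 437 to 3547 in tumors against 1546 to 21712 CPM in islets for alpha, delta and PP markers, 0.724 to 214 against 316 to 5877 CPM for acinar markers, and 189 to 675 against 239 to 273 CPM for ductal markers. It was 102 to 2045 against 119 to 182 CPM for fibroblast markers, 265 to 729 against 116 to 276 CPM for macrophage markers and 319 to 904 against 810 to 924 CPM for endothelial markers. For the acinar markers Prss2, Cpa1, Cpb1, Cela2a, Amy2b and Ctrb1, counts of 0 were found only in tumors, and not in M5 or M6. The part of these cell types in the results below was not tested.

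Ccnd2 was the gene of the 9 that differed most between tumors and islets, and it was lower in all 6 tumors than in any islet library. Ccnd1 was also lower in the tumors than in NI2 and NI3, by a smaller fold, while Ccnd3 differed little. Ccne1, Ccne2 and Cdk2 were higher in all 6 tumors than in NI2 and NI3, and NI1 lay near the tumors for them. Cdk4, Cdk6 and Cdc25a showed no called difference. With all 9 libraries, 1 of the 9 genes (Ccnd2) passed an adjusted p of 0.05, against 0.258% of all tested genes. DESeq2 called 2 (Ccnd2 and Cdk2), against 8.06% of all genes. Without NI1, edgeR called 3 (Ccnd2, Ccne2 and Cdk2), against 8.34% of all genes, and the same 3 genes were called without both NI1 and M6 (9.32% of all genes). At an unadjusted p under 0.05, 4 of the 9 passed in edgeR with all libraries (Ccnd1, Ccnd2, Ccne2 and Cdk2), against 19.8% of all genes.

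**Figure D1:**
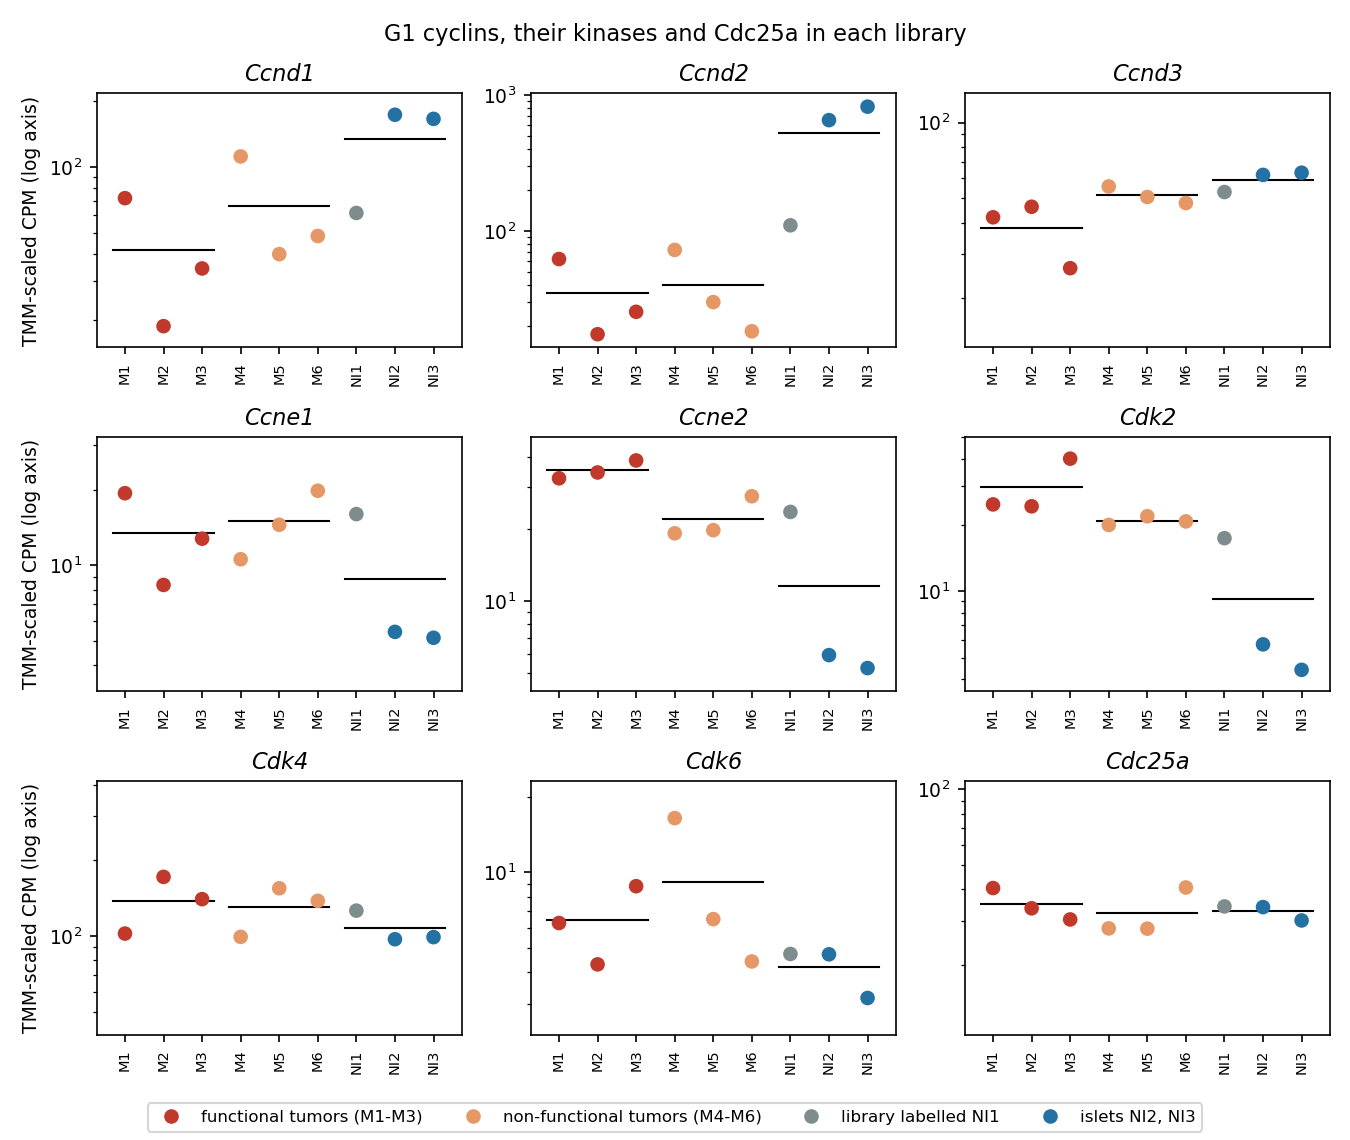
TMM-scaled CPM (log axis) of each of the 9 genes in each library, with 1 point per library, colored by group, and black bars at the mean of each group of 3. In the Ccnd2 panel all 6 tumors lie between 17.4 and 72.5 CPM, below NI1 at 110.0 CPM and well below NI2 and NI3, and for Ccne1, Ccne2 and Cdk2 the NI1 point sits apart from NI2 and NI3.

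Ccnd2 (ENSMUSG00000000184, chromosome 6, 127125162 to 127152193, minus strand of GRCm38) encodes cyclin D2. It was at 62.1, 17.4 and 25.4 CPM in M1, M2 and M3, at 72.5, 29.9 and 18.3 CPM in M4, M5 and M6, and at 110.0, 653 and 821 CPM in NI1, NI2 and NI3. The groups did not overlap, but NI1 was nearer to M1 and M4 than to NI2 and NI3. The 6 tumors averaged 37.6 ± 23.7 CPM and the 3 islet libraries 528 ± 372 CPM (mean ± SD), and the log2 fold change was −3.81 (SE 0.62, adjusted p = 0.0446, edgeR). Without NI1 it was −4.30 (SE 0.51, adjusted p = 0.00326), and the mean of NI2 and NI3 was 19.6-fold that of the tumors. Without NI1 and M6 it was −4.15 (adjusted p = 0.00483).

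The call on Ccnd2 with all 9 libraries was close to the threshold. In edgeR it was lost when M1, M2, M3, M5, NI2 or NI3 was left out, with adjusted p of 0.0774, 0.105, 0.130, 0.137, 0.236 and 0.301, and with DESeq2 size factors (0.0506) or upper-quartile scaling (0.0551). Over 17 alternatives the log2 fold change stayed between −4.30 and −3.35 and the adjusted p between 1.49e-12 and 0.301.

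Ccnd1 (ENSMUSG00000070348, chromosome 7, 144929931 to 144939925, minus strand) encodes cyclin D1. It was at 71.9, 18.8 and 34.4 CPM in M1 to M3, at 111, 39.9 and 48.3 CPM in M4 to M6, and at 61.6, 173 and 165 CPM in the islets. All 6 tumors were below NI2 and NI3, and 4 were below NI1 as well. The log2 fold change of −1.30 did not pass (SE 0.49, adjusted p = 0.201), nor did −1.65 without NI1 (SE 0.50, adjusted p = 0.0749). DESeq2 without NI1, which called 18.8% of all genes, did call it (adjusted p = 0.0219).

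Ccnd3 (ENSMUSG00000034165, chromosome 17, 47505051 to 47599691, plus strand) encodes cyclin D3. It varied least of the D-type cyclins, with 42.0, 46.3 and 26.4 CPM in M1 to M3, 55.7, 50.6 and 47.9 CPM in M4 to M6, and 53.0, 62.0 and 63.2 CPM in the islets. All 6 tumors were below NI2 and NI3, but the difference was small (log2 fold change −0.41, SE 0.22, adjusted p = 0.328). Without NI1 it was −0.48 (adjusted p = 0.261).

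The fall of Ccnd2 was set against Ccnd1 and Ccnd3 within each library, which does not depend on scaling between libraries. The ratio of Ccnd2 to Ccnd1 counts was 0.864, 0.926 and 0.739 in M1 to M3, 0.650, 0.750 and 0.378 in M4 to M6, and 1.79, 3.78 and 4.96 in NI1 to NI3. Every tumor held fewer Ccnd2 than Ccnd1 counts, and every islet library held more. The mean log2 ratio was −0.53 ± 0.46 in tumors (SD, n = 6) and 1.69 ± 0.76 in islets (SD, n = 3), a difference of −2.22 (exact two-sided permutation p = 0.0238, the smallest that 84 labelings allow).

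The ratio of Ccnd2 to Ccnd3 counts was 1.48, 0.375 and 0.964 in M1 to M3, 1.30, 0.592 and 0.381 in M4 to M6, and 2.08, 10.5 and 13.0 in the islets. Here too no tumor reached an islet library, with a difference in mean log2 ratio of −3.16 (exact two-sided permutation p = 0.0238). Both ratios were picked with earlier results of these data known. Ratios of Ccnd1 to Ccnd3, Ccne2 to Ccne1 and Cdk6 to Cdk4, added after the data were seen, differed by −0.94 (exact permutation p = 0.143), 0.79 (p = 0.0714) and 0.43 (p = 0.548) on the log2 scale. Adjusted over the 5 ratios by the Benjamini-Hochberg method, the permutation p of both Ccnd2 ratios became 0.0595. With any 1 islet library left out, the smallest exact p was 0.0714, and the differences without NI1 were −2.65 and −3.99.

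The count ratios above serve to compare libraries, since counts of different genes also depend on transcript length. Levels of different genes within a library were compared per kilobase, over the length of 1 annotated transcript of each gene. Of the summed D-type cyclin level per kilobase, Ccnd2 made up 20.1%, 9.25% and 15.6% in M1 to M3, 16.9%, 12.0% and 7.50% in M4 to M6, 29.5% in NI1, 57.8% in NI2 and 63.6% in NI3. Ccnd3 made up 39.0% to 73.8% in the tumors, 42.6% in NI1 and 14.7% to 16.4% in NI2 and NI3. Ccnd1 was between 16.9% and 44.1% in the tumors and between 21.7% and 27.9% in the islets, so its share overlapped between the groups. Ccnd2 thus led the D-type cyclins in NI2 and NI3 and held the smallest share in each of the 6 tumors.

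**Figure D2:**
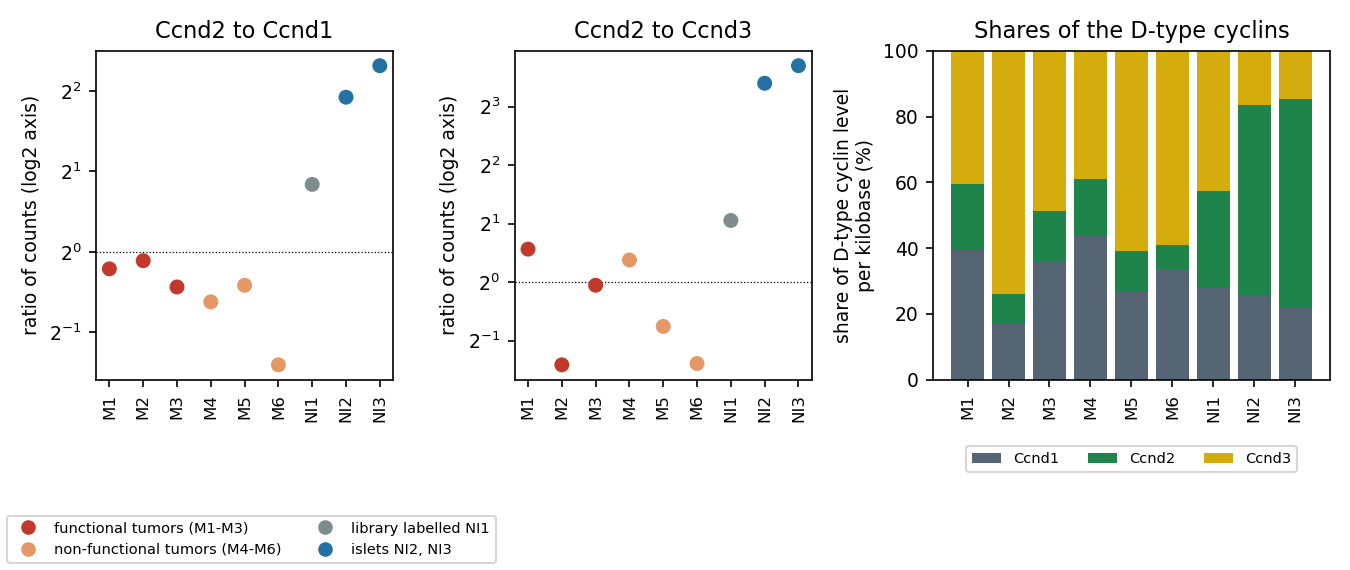
Ratio of Ccnd2 to Ccnd1 counts and of Ccnd2 to Ccnd3 counts in each library (log2 axes, dotted line at a ratio of 1) and the share of each D-type cyclin in their summed level per kilobase (percent, stacked). The tumors lie below 1 for Ccnd2 to Ccnd1 and the islets above it, and the Ccnd2 share is 7.50% to 20.1% in tumors, 29.5% in NI1 and 57.8% to 63.6% in NI2 and NI3.

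Among the kinases of the D-type cyclins, Cdk4 (ENSMUSG00000006728, chromosome 10, 127063534 to 127067920, plus strand) was at 102, 172 and 140 CPM in M1 to M3, at 99.1, 155 and 138 CPM in M4 to M6, and at 126, 97.0 and 98.9 CPM in the islets. The groups overlapped only through NI1, but M4 lay barely above NI3. The log2 fold change was 0.32 (SE 0.21, adjusted p = 0.416), and 0.45 without NI1 (adjusted p = 0.277). Per kilobase Cdk4 was the highest of the 9 genes in the tumors, at a mean of 65.4 CPM per kilobase against 21.2 for Ccnd3, the next in order, and the ranges of these 2 genes over the tumors did not overlap.

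Cdk6 (ENSMUSG00000040274, chromosome 5, 3341485 to 3531008, plus strand) was at 6.29, 4.31 and 8.82 CPM in M1 to M3, at 16.5, 6.52 and 4.43 CPM in M4 to M6, and at 4.74, 4.72 and 3.17 CPM in the islets. Only M4, the library with the high mitochondrial share, exceeded 10 CPM. The log2 fold change was 0.89 (SE 0.47, adjusted p = 0.315), and 0.98 without NI1 (SE 0.57, adjusted p = 0.307). Per kilobase it was the lowest of the 9 genes in both tissues, at 0.677 CPM per kilobase in tumors and 0.342 in NI2 and NI3.

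Ccne2 (ENSMUSG00000028212, chromosome 4, 11191351 to 11204779, plus strand) encodes cyclin E2. It was at 32.7, 34.6 and 38.8 CPM in M1 to M3, at 19.2, 19.8 and 27.5 CPM in M4 to M6, and at 23.6, 5.94 and 5.24 CPM in NI1 to NI3. NI1 lay within the range of the non-functional tumors, and NI2 and NI3 lay below every tumor. The log2 fold change was 1.31 with all libraries (SE 0.49, adjusted p = 0.197) and 2.36 without NI1 (SE 0.35, adjusted p = 0.00753). The tumor mean was 5.14-fold the mean of NI2 and NI3.

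Cdk2 (ENSMUSG00000025358, chromosome 10, 128697939 to 128705031, minus strand) was at 24.8, 24.3 and 40.0 CPM in M1 to M3, at 20.0, 21.9 and 20.8 CPM in M4 to M6, and at 17.4, 5.75 and 4.40 CPM in the islets. All 6 tumors were above all 3 islet libraries, although NI1 lay just under the lowest tumor, M4. The log2 fold change was 1.46 (SE 0.44, adjusted p = 0.161 by edgeR, 0.0193 by DESeq2), and 2.32 without NI1 (SE 0.35, adjusted p = 0.00753, edgeR). The tumor mean was 4.99-fold that of NI2 and NI3. Without NI1 and M6, Ccne2 and Cdk2 both had a log2 fold change of 2.37 (adjusted p of 0.0114 and 0.00961).

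Ccne1 (ENSMUSG00000002068, chromosome 7, 38097984 to 38107534, minus strand) encodes cyclin E1. It was at 19.3, 8.35 and 12.8 CPM in M1 to M3, at 10.6, 14.5 and 19.8 CPM in M4 to M6, and at 16.0, 5.43 and 5.15 CPM in the islets. All 6 tumors were above NI2 and NI3, and only 2 were above NI1. The log2 fold change was 0.68 (SE 0.43, adjusted p = 0.400), and 1.42 without NI1 (SE 0.40, adjusted p = 0.0572), which DESeq2 without NI1 called (adjusted p = 0.00346).

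Cdc25a (ENSMUSG00000032477, chromosome 9, 109875579 to 109893895, plus strand) was the steadiest of the 9 genes. It was at 40.5, 33.6 and 30.4 CPM in M1 to M3, at 28.0, 27.9 and 40.7 CPM in M4 to M6, and at 34.2, 34.0 and 30.1 CPM in the islets. The groups overlapped fully, its highest value was 1.46 times its lowest, and the log2 fold change was 0.03 (SE 0.18, adjusted p = 0.942), or 0.06 without NI1 (SE 0.22, adjusted p = 0.887). Its sign changed when M1, M6 or NI3 was left out (−0.028, −0.031 and −0.030).

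Counted over the 9 genes, 2 had tumor and islet groups that did not overlap (Ccnd2 lower, Cdk2 higher), against 7.67% of all tested genes. With NI1 set apart, 7 of the 9 had tumors that did not overlap NI2 and NI3, against 32.9% of all tested genes. These were Ccnd1, Ccnd2 and Ccnd3 on the lower side and Ccne1, Ccne2, Cdk2 and Cdk4 on the higher side. For Cdk4 the margin was narrow, with M4 at 99.1 CPM and NI3 at 98.9 CPM. Across the 9 libraries, which share these groups, Ccne2 and Cdk2 had a Pearson r of 0.97, and Ccnd2 had an r of −0.92 with each of them.

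**Figure D3:**
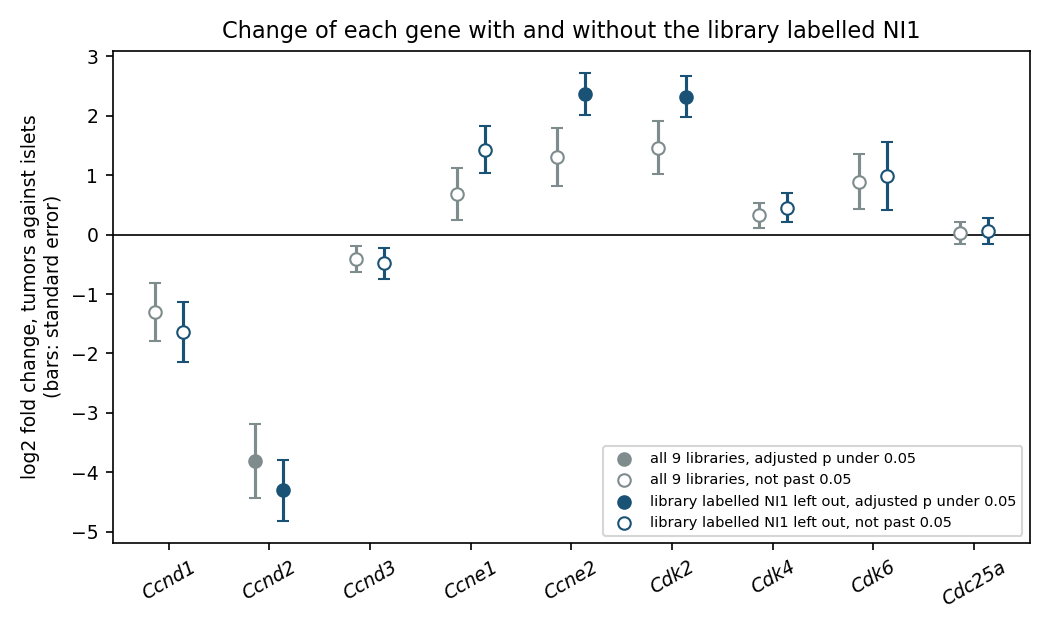
Log2 fold change of tumors against islets for each gene (bars: standard error) with all 9 libraries and with the library labelled NI1 left out, filled where the adjusted p was under 0.05. Ccnd2 is filled in both fits, at −3.81 and −4.30, while Ccne2 and Cdk2 are filled only without NI1, at 2.36 and 2.32.

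The functional and non-functional tumors were each set against the same 3 islet libraries. With all 9 libraries edgeR called 0 of the 9 genes in either comparison, against 0.476% of all genes for functional and 0% for non-functional tumors. At an unadjusted p under 0.05 the counts were 5 of 9 for functional tumors (Ccnd1, Ccnd2, Ccnd3, Ccne2 and Cdk2), against 21.1% of all genes, and 2 of 9 for non-functional tumors (Ccnd2 and Cdk2), against 14.5%. DESeq2 called 4 of 9 (Ccnd1, Ccnd2, Ccne2 and Cdk2) against 10% of all genes for functional tumors, and 1 of 9 (Ccnd2) against 2.54% for non-functional tumors. Without NI1, edgeR called Ccnd2, Ccne2 and Cdk2 in both comparisons, against 7.82% of all genes for functional and 3.92% for non-functional tumors. The log2 fold changes were then −4.40 and −4.20 for Ccnd2, 2.65 and 1.99 for Ccne2, and 2.54 and 2.04 for Cdk2, functional tumors first.

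None of the 9 genes passed between functional and non-functional tumors. edgeR called 0 of all tested genes at an adjusted p under 0.05 (0%), and 0 of the 9 genes passed even at an unadjusted p under 0.05, against 10.3% of all genes. DESeq2 also called 0 of the 9 (0.715% of all genes). The log2 difference, functional minus non-functional, was −0.67 (SE 0.58) for Ccnd1, −0.20 (SE 0.76) for Ccnd2 and −0.43 (SE 0.23) for Ccnd3.

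For 3 of the 9 genes the functional and non-functional tumors did not overlap, against 15% of all genes. Ccne2 was at 35.4 ± 3.14 CPM in functional and 22.2 ± 4.61 CPM in non-functional tumors (SD, n = 3 each, log2 difference 0.67, SE 0.52, adjusted p = 0.675, edgeR). Cdk2 was at 29.7 ± 8.93 and 20.9 ± 0.959 CPM (log2 difference 0.51, SE 0.47, adjusted p = 0.737, edgeR). Ccnd3 went the other way, with 38.2 ± 10.5 CPM in functional and 51.4 ± 3.99 CPM in non-functional tumors (adjusted p = 0.540, edgeR). None of these differences passed the test.

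Promoter sequence was looked at because Ccne2 and Cdk2 were called together with the replication genes below, many of which are known targets of E2F, when NI1 was left out, though not with all 9 libraries. RefSeq windows on GRCm38.p6, from 250 bases before to 50 after the gene start, matched 6 of the 9 genes, and not Ccnd1, Ccnd2 or Ccne2. Both strands were searched for the E2F-type octamers TTTGGCGC, TTTCCCGC and TTTCGCGC and for the E-box CACGTG, no 2 of which have the same letters on either strand. TTTCCCGC was found in the window of Cdk2 and in 1.07% of 32851 windows, and TTTGGCGC in that of Cdc25a and in 0.514%. TTTCGCGC was in none of these genes' windows and in 0.323% of all. CACGTG was in the windows of Cdk4 (4 copies) and Cdk6 and in 7.15% of all. The Cdk2 and Cdc25a windows are shown 5′ to 3′ along the gene, with the octamer in capitals, since Cdk2 was called without NI1 and Cdc25a was not. The Cdk2 window is chr10:128705002-128705301 on the minus strand and carries the octamer as its reverse complement, and the Cdc25a window is chr9:109875329-109875628 on the plus strand.
Cdk2: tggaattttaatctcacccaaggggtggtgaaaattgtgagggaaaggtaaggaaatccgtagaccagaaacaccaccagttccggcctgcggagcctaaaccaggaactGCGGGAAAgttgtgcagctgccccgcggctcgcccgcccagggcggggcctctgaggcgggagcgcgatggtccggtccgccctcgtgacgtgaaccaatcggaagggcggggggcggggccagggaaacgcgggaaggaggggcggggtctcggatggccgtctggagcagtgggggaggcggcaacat
Cdc25a: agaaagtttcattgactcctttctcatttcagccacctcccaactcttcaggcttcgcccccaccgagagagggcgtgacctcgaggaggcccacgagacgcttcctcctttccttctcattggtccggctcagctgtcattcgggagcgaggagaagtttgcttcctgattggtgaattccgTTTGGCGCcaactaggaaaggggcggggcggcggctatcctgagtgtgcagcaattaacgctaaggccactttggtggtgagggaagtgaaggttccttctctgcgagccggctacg
The octamer begins 140 bases before the start of Cdk2 and 67 bases before that of Cdc25a. A match in these letters is a description of the window and not a measured site.

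The wider pathway was read from 8 lists, whose counts are for tumors against islets in edgeR. With all 9 libraries, 0 genes of any list passed an adjusted p of 0.05 (all genes: 0.258%). Counts at an unadjusted p stand against 19.8% of all genes, and calls without NI1 against 8.34%, or 5.34% for higher genes alone. The median log2 fold change was 0.03 over all tested genes, and 0.05 without NI1.

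Of the 18 S-phase E2F targets, such as the Mcm helicase genes, 18 had a positive log2 fold change, with a median of 1.29, and 11 passed at an unadjusted p (all genes: 19.8%). Without NI1 all 18 were called higher, with a median of 2.28, against 5.34% of all genes. Mcm2, a helicase subunit named here after its values were seen, was at 130.0 to 225 CPM in tumors, at 172 CPM in NI1 and at 22.5 and 16.4 CPM in NI2 and NI3. Cdc6 and Cdt1, which load that helicase, had log2 fold changes of 1.97 and 1.62 with all libraries (adjusted p = 0.188 and 0.229) and 3.43 and 3.46 without NI1 (adjusted p = 0.0159 and 0.00219). NI1 thus stood with the tumors in these genes as it did in Ccne2 and Cdk2.

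The 8 mitotic cyclins and kinases had a median of 1.79 and all 8 passed at an unadjusted p. Without NI1, 6 were called higher, with a median of 2.35. Aurkb, a mitotic kinase, was at 9.25 to 32.2 CPM in tumors and at 7.72, 3.85 and 2.25 CPM in NI1 to NI3 (log2 fold change 2.15, adjusted p = 0.133), and it was called without NI1 (2.74, adjusted p = 0.0168). Ccnb2, a B-type cyclin, had a log2 fold change of 2.05 (adjusted p = 0.152), and 2.50 without NI1 (adjusted p = 0.0505). The proliferation markers, which share 4 genes with this list, summed to 290 to 864 CPM in tumors and 42.2 to 271 CPM in islets, and M6 held the lowest tumor sum.

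Of the 10 E2F and DP genes, 6 passed as higher and 1 as lower at an unadjusted p, and without NI1 edgeR called the same numbers. E2f7 and E2f8, repressor members of the family, had log2 fold changes of 2.07 and 2.02 (adjusted p = 0.170 and 0.161), and 3.43 and 2.82 without NI1 (adjusted p = 0.0154 and 0.0326). In the Rb family, Rbl1, which encodes p107, had a log2 fold change of 1.17 (adjusted p = 0.198) and 2.0 without NI1 (adjusted p = 0.0147). Rb1 itself was at 28.1 to 74.3 CPM in tumors and 33.3 to 40.1 CPM in islets (log2 fold change 0.16, adjusted p = 0.787, and 0.21, adjusted p = 0.746, without NI1).

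None of the genes that encode inhibitors of these kinases passed as lower. Of 7 CDK inhibitor genes, 4 passed as higher and 0 as lower at an unadjusted p (all genes, either way: 19.8%), and without NI1 3 were called higher (all genes: 5.34%). Cdkn1a, which encodes p21, was at 143, 262 and 138 CPM in M1 to M3, at 122, 160 and 51.0 CPM in M4 to M6, and at 41.5, 35.5 and 33.1 CPM in the islets (log2 fold change 1.99, adjusted p = 0.119). Without NI1 its adjusted p was 0.0419. Cdkn2a, the gene of p16 and p19ARF, was at 6.77 to 63.5 CPM in tumors, 11.6 CPM in NI1 and 0.901 and 0.544 CPM in NI2 and NI3 (log2 fold change 2.94, adjusted p = 0.191), and rose by 5.53 on the log2 scale without NI1 (adjusted p = 0.0163). NI1 lay between M6 and the other islet libraries for Cdkn1a, and was close to M6, at 11.9 CPM, for Cdkn2a. The third gene called without NI1 was Cdkn2c, which encodes p18Ink4c and is named here after its values were seen. It was at 80.1 to 129 CPM in tumors and at 77.7, 18.5 and 10.5 CPM in NI1 to NI3. Its log2 fold change was 1.54 (adjusted p = 0.182), and 2.83 without NI1 (adjusted p = 0.00299).

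Of the 10 genes of the CDK-activating kinase and other CDK regulators, 5 passed as higher and 1 as lower at an unadjusted p (all genes, either way: 19.8%). Not all are activators, since Wee1 and Pkmyt1 encode kinases that inhibit CDKs. Pkmyt1 was among the genes higher at an unadjusted p (log2 fold change 1.29, adjusted p = 0.161). It was not called without NI1 either (1.58, adjusted p = 0.0585). Without NI1, 2 of the 10 were called higher (all genes: 5.34%). Those 2 were Cdc25c, a mitotic phosphatase, and Cks2, a small kinase subunit, with log2 fold changes of 2.18 and 1.89 (adjusted p = 0.192 and 0.152), and 3.50 and 2.53 without NI1. In the list of ubiquitin and turnover genes, Skp2, the F-box protein that targets p27, was the 1 of 14 that passed at an unadjusted p (log2 fold change 1.61, adjusted p = 0.187), and it was called without NI1 (2.83, adjusted p = 0.0109). Fbxo4, described as an F-box protein for cyclin D1, was at −0.44 (adjusted p = 0.403), and at −0.68 without NI1 (adjusted p = 0.160).

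The list of D-cyclin inducers holds 15 genes, among them Foxo1, which is known as a repressor of these cyclins. Of the 15 genes, 1 passed as higher and 2 as lower at an unadjusted p, a share close to the 19.8% of all genes. Foxm1, a factor of the mitotic program, was the higher one (log2 fold change 1.95, adjusted p = 0.148), and it was called without NI1 (2.64, adjusted p = 0.0225). Lef1, a partner of beta-catenin, was at 0.0141 to 0.435 CPM in tumors and at 1.37, 4.24 and 3.22 CPM in NI1 to NI3 (log2 fold change −3.84, adjusted p = 0.113), and it did not pass the low-count filter without NI1. Its value in M2 was under 3 counts, so the size of this fold change rests on low tumor counts. Myc was the other lower gene, named here after its values were seen, with −1.44 (adjusted p = 0.161) and, without NI1, −1.52 (adjusted p = 0.0930). It was at 4.32 to 8.19 CPM in M1 to M5, but at 19.2 CPM in M6, close to the islets at 20.1, 25.6 and 22.0 CPM. The list's median log2 fold change was −0.17.

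**Figure D4:**
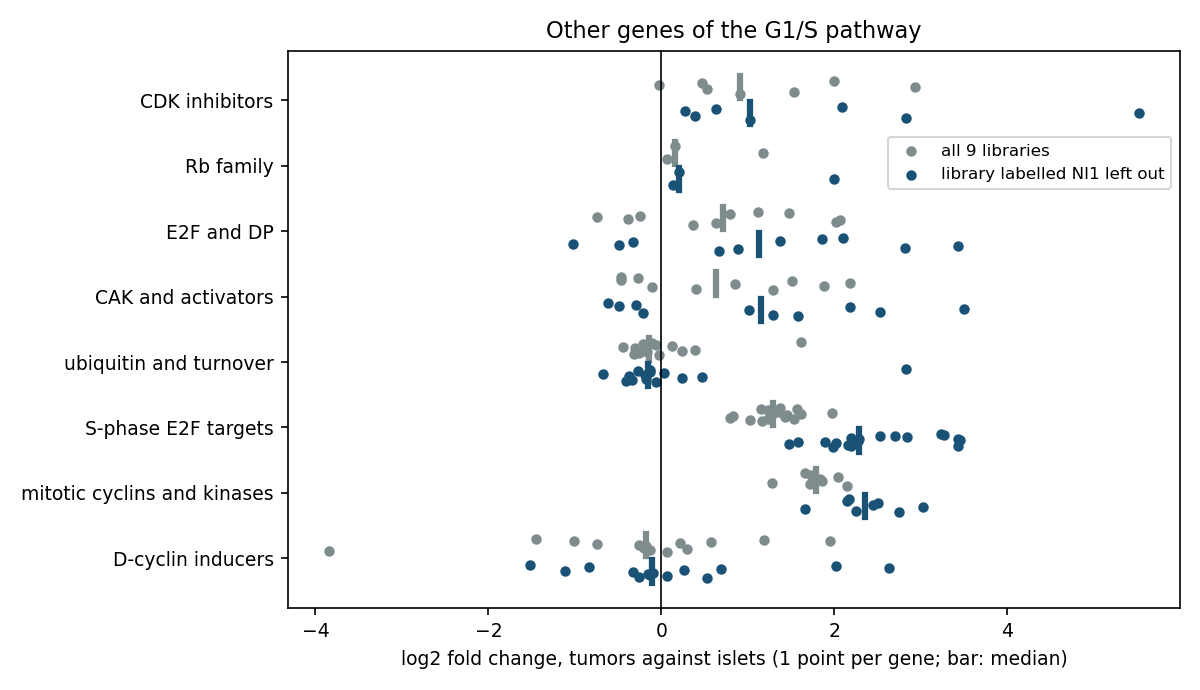
Log2 fold change of tumors against islets for each gene of the 8 pathway lists (1 point per gene, vertical bar at the list's median), with all 9 libraries in grey and with the library labelled NI1 left out in blue. The median of the S-phase E2F targets moves from 1.29 to 2.28 and that of the mitotic list from 1.79 to 2.35 when NI1 is left out, while the lists of turnover genes and D-cyclin inducers stay near 0.

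The genes whose log2(CPM + 1) followed Ccnd2 most closely over the 9 libraries were Tmem59l (Pearson r = 0.985), Tmem17 (0.974), 4430402I18Rik (0.970), P3h2 (0.969) and Hist1h1e (0.966). Tmem59l was at 0.452 to 10.7 CPM in tumors, at 12.7 CPM in NI1 and at 143 and 136 CPM in NI2 and NI3, so it separated the libraries as Ccnd2 did. Those closest to Ccnd1 were Rap1gds1 (0.966), L3mbtl3 (0.964), Rgl1 (0.962), Bcar3 (0.960) and Lats2 (0.954). Those closest to Ccne1 were Trp53 (0.978), Tef (0.971), Tuba8 (0.970), Trim24 (0.958) and 1600023N17Rik (0.958). Trp53 was at 40.1 to 58.3 CPM in tumors, 52.1 CPM in NI1, 27.7 CPM in NI2 and 32.3 CPM in NI3. These libraries share tissue and group, so the coefficients are given as a description.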

How the data were processed

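Mouse tumor and islet RNA was sequenced as single-end 75 bp reads. The authors trimmed reads with Trimmomatic 0.38 and quantified transcripts with Salmon 1.4.0 against mm10, and they deposited whole-number counts per gene without scaling between libraries. The file is named TPM, but its columns sum to different totals, from 36468280 to 63637175. The step from transcripts to genes is not given in the sources used here. At this depth 3 counts correspond to 0.0424 to 0.119 CPM. The study states that sample sizes were biological replicates.

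Identifiers were matched to GENCODE vM21 symbols (54094 of 54347). A gene entered the tests when 3 or more libraries reached 1 CPM (15532 genes, or 15350 without NI1). After TMM scaling, edgeR 4.0.16 in R 4.3.3 was run with its quasi-likelihood F test. P-values were two-sided and adjusted by the Benjamini-Hochberg method over all tested genes at a threshold of 0.05. Tumors were tested as 1 group of 6 against 3 islet libraries, and the other comparisons came from a fit of 3 groups. The SE was the log2 fold change divided by the square root of F. Ratios within a library used a pseudocount of 0.1 CPM. Alternatives were DESeq2 1.42.0, other scalings, no low-count filter, removal of mitochondrial genes, the replicate number as a block, and each library left out in turn. DESeq2 without NI1 and the fits without NI1 and M6 were added after the data were seen. The named genes were all 9 members, the 2 genes with the largest fold change and any called gene of each pathway list, and the 5 genes closest in pattern to Ccnd2, Ccnd1 and Ccne1. Mcm2, Myc, Cdkn2c, Wee1, Pkmyt1 and Foxo1 were named outside this rule, as were single marker genes. Members and lists were chosen with earlier results of these data known. On simulated counts with 200 of 15532 genes changed by 2 on the log2 scale, edgeR recovered 98.5% for tumors against islets with 4.37% false calls. The simulation gave all genes the same spread and held no library like NI1. It checks that the test runs correctly and does not give its power in these data. Sequences and promoter windows were read from GENCODE and RefSeq files.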

Additional observations from a re-analysis of the deposited data

Results flagged for a closer look

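Cdk2 in M3 stood apart from the other tumors. On log2(CPM + 1), the gap from M3 to the next tumor was 0.693 of the range over the 6 tumors, above Dixon's 95% critical value of 0.625. It was 1 of 14 measures tested in this way, and chance alone is set to mark about 1 group in 20. M3 was at 40.0 CPM and the other 5 tumors were at 20.0 to 24.8 CPM.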

How the results depend on the processing

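The lowest count of any of the 9 genes was 128 (Cdk6 in NI3), so none of their values rested on a few reads. Counting error was not compared with the spread between libraries. Of all tested genes, 40 were called for tumors against islets, against 104 with no low-count filter, 1252 with DESeq2, 98 in a fit of 3 groups, 2893 with DESeq2 without NI1, 1413 without NI1 and M6, and 6 to 1280 when 1 library was left out. The count among the 9 genes was 1, and became 0 with DESeq2 size factors or upper-quartile factors, 2 with DESeq2, 5 with DESeq2 without NI1, 3 without NI1 and M6, and 0 to 3 with 1 library left out. For functional tumors against islets 74 genes were called, 433 with no filter, 1556 with DESeq2 and 0 to 1201 with 1 library left out, and 0 of the 9, 1 with no filter, 4 with DESeq2 and 0 to 3 with 1 library left out. Replicate numbers shared by M1 to M3 and NI1 to NI3 did not pair the libraries (r of deviations −0.0516, 0.03 and −0.159), and a fit with the replicate number as a block called 34 genes and 0 of the 9, against 163 in the same 6 libraries with no block. For non-functional tumors against islets the count was 0, 36 with no filter, 394 with DESeq2 and 0 to 602 with 1 library left out, and among the 9 it was 0, 1 with DESeq2 and 0 to 3 with 1 library left out. For functional against non-functional tumors the count was 0, 1 with no filter, 111 with DESeq2 and 0 with any 1 library left out. The difference in the log2 ratio of Ccnd2 to Ccnd1 ran from −2.65 to −1.91 and that of Ccnd2 to Ccnd3 from −3.99 to −2.67 with 1 library left out, with exact permutation p = 0.0714 without any islet library, the smallest that this number of libraries allows. The largest leave-one-out counts were those without NI1. The sign changed only for log2 fold changes that were not called. For tumors against islets, Cdc25a ran from −0.031 (without M6) to 0.082 with 1 library left out, was below 0 also without M1 and NI3, and was −0.0015 without NI1 and M6. For functional tumors it ran from −0.033 (without M1) to 0.18. For non-functional tumors it was 0.012 with upper-quartile factors and ran from −0.23 to 0.083, above 0 without M4, M5 or NI1. For functional against non-functional tumors, Ccnd2 ran from −0.91 to 0.53 (above 0 without M2 or M4), Ccne1 from −0.50 to 0.10 (above 0 without M2 or M6, and 0.10 without NI1 and M6), Cdk4 from −0.11 to 0.26 (below 0 without M2 or M4), Cdk6 from −0.83 to 0.25 (above 0 without M4), and Cdc25a from −0.0089 to 0.32 (below 0 without M1 or M5). The cause of these changes was not tested.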
